A study of Mus musculus with 4 samples.

Results

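The tight junction of epithelia is described here by the transcripts of 9 genes, measured by RNA-seq in stem cells of growing (anagen) hair follicles from C57BL/6 mice. The genes were the claudins Cldn1, Cldn3, Cldn4, Cldn7, Cldn10 and Cldn12, occludin (Ocln), the junctional adhesion molecule F11r and the scaffold Tjp1. They were taken by gene symbol, and all 9 were found among the 55401 genes of the deposited table. The HFD group held 2 libraries from mice given a high-fat diet for 4 months, and the ND group held 2 libraries from mice given a normal diet. The labels give no age or sex, do not say how the cells were isolated, and do not say that replicate libraries are separate mice. The p-values therefore reflect the spread between libraries of a diet, which could be technical. In the tests per gene this spread is partly taken from all genes tested.

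Tight junctions seal the space between neighbouring epithelial cells. Claudins are small membrane proteins that assemble into the sealing strands, and the mix of claudins sets which ions and solutes pass. Occludin and JAM-A, the product of F11r, are further membrane proteins of the junction, and ZO-1, the product of Tjp1, ties them to the actin cytoskeleton. In skin the functional barrier of this kind lies in the granular layer of the epidermis, and mice without Cldn1 lose water through the skin and die soon after birth. Claudin-3 and claudin-4 are receptors for an enterotoxin of Clostridium perfringens.

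Total counts lay between 8590570 and 9940848 per library. All 14 bulge stem cell markers had counts, and their summed level was 22826 and 20516 CPM (counts scaled to a common, TMM-adjusted library size) in HFD libraries and 16154 and 18801 CPM in ND libraries. Krt5, Krt14 and Krt15 were the largest parts of this sum, at 8766, 6048 and 3012 CPM in the first HFD library. Of the 13 markers that could be tested 6 had positive and 7 negative log2 fold changes. Both HFD libraries lay above both ND libraries for 4 (Krt5, Krt14, Krt15 and Itga6). They lay below for 6 (Cd34, Lgr5, Sox9, Lhx2, Nfatc1 and Tcf3). The order above held for 21.8% of 12570 genes past a count level in both diets, and no share was computed for the order below. The surface marker Cd34 stood at 69.8 and 64.9 CPM in HFD libraries and 81.1 and 73.6 CPM in ND libraries. Markers of suprabasal and granular epidermis summed to 5745 and 6927 CPM in HFD libraries and 2337 and 4204 CPM in ND libraries. By the edgeR test described further on, 4 of these 14 passed as higher and 1 as lower, where 1.12% and 0.228% of all genes tested did. Of 12 upper follicle and sebaceous markers 5 passed as higher, and their sums overlapped between the diets (4417 and 3935 CPM in HFD libraries, 4800 and 3823 CPM in ND libraries). Endothelial markers summed to 25.5 and 26.8 CPM in HFD libraries against 17.3 and 17.8 CPM in ND libraries, and fibroblast markers to 94.1 and 81.4 CPM against 46.3 and 65.4 CPM. Of 10 marker lists in all, 8 had both HFD sums above both ND sums and 0 the reverse. No share was computed for other gene lists. The lists are not separate results, because they come from the same libraries and Krt77 is in 2 of them. Some sums were small, such as adipocyte and muscle markers at 12.3 and 15.3 CPM in HFD libraries and 8.74 and 7.43 CPM in ND libraries. Fewer or more cells of a type and less or more RNA per cell cannot be told apart in such bulk samples.

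The genes lie on 7 chromosomes, and Cldn4 and Cldn3 are neighbours on chromosome 5. Promoter sequence is shown for Cldn1, the most abundant member, for the neighbours Cldn4 and Cldn3, whose fold changes were the largest, and for Ocln. Each is the run of 250 bases before a RefSeq start site on build GRCm38.p6, read 5′ to 3′ on the strand of the gene. Capitals mark matches, on either strand, to the GC box (GGGCGG), the E-box bound by Snail and ZEB repressors (CAGGTG) and the AP-1 site (TGANTCA). The position of Cldn1 is chr16:26371840-26372089 (minus strand), of Cldn4 chr5:134946935-134947184 (minus strand), of Cldn3 chr5:134985964-134986213 (plus strand) and of Ocln chr13:100552719-100552968 (minus strand).
Cldn1: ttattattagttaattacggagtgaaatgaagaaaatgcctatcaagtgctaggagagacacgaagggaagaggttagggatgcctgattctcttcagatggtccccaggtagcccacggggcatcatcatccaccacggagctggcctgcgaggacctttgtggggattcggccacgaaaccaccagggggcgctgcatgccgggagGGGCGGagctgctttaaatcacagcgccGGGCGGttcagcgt
Cldn4: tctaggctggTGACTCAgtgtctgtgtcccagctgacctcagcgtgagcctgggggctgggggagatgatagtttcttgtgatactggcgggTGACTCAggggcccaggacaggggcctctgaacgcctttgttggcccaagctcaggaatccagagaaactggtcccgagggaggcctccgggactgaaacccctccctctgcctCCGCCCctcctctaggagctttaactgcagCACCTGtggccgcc
Cldn3: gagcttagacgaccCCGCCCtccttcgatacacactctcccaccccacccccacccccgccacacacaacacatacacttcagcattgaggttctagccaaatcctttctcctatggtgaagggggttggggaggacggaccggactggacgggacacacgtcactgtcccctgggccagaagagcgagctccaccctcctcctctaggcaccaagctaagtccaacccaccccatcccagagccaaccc
Ocln: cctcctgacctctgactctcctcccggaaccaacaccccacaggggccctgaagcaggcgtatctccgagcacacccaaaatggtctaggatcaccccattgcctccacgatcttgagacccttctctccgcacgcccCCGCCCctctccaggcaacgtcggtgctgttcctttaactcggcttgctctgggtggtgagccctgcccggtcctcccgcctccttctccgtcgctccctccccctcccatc

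Motifs were searched on both strands in windows of 300 bases, from 250 before to 50 after each start site. All 9 members matched the RefSeq table, with 14 windows between them, because Cldn7, Cldn10, Cldn12 and Ocln have several start sites. A GC box occurred in at least 1 window of each of the 9 members and in 11 of the 14 windows, against 35.7% of all 32851 windows. The 14 windows held 36.0% to 72.0% G and C, against a median of 52.7% over all windows. Only 1 window each of Cldn7, Cldn10 and Cldn12 lay below that median. The part of base composition in the matches was not tested. CAGGTG occurred in 6 windows of 5 members (Cldn3, Cldn4, Cldn7, F11r and Ocln), against 20.2% of all windows. The AP-1 letters occurred at 2 places in the window of Cldn4, with first bases at positions -240 and -158, and once in that of F11r, against 7.81% of all windows. TEAD letters (GGAATG) were found in 1 window, of Cldn7, against 14.7% of all, and neither the grainyhead-like letters AACNNGTT (4.2% of all windows) nor the TATA box TATAAA (13.6%) occurred in a member's window. Several windows of one gene overlap, so they are not separate observations. A match is a description of letters in a window, not of binding.

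None of the 9 genes passed the test for a difference between the diets, in either direction (edgeR quasi-likelihood test, Benjamini-Hochberg adjustment over 14479 genes tested, adjusted p under 0.05). Of all genes tested 1.35% passed, 1.12% as higher and 0.228% as lower with the high-fat diet. The default count filter was passed by 8 of the 9, all but Cldn10, and Cldn3 passed it only through its HFD counts. The smallest unadjusted p among them was 0.053, and 0 of 8 were under 0.05 without adjustment. DESeq2, which called 2.72% of all genes, and limma, which called 0.0138%, also called 0 of these 8, though DESeq2 gave Cldn7 no adjusted p. At an unadjusted p under 0.05 edgeR placed 13.3% of all genes. Log2 fold changes of the 8 tested genes lay between 0.09 for Cldn1 and 1.47 for Cldn3. Directions were counted over genes past the count level of the filter in both libraries of each diet, which leaves out Cldn3 and Cldn7 as well as Cldn10. The other 6 members had positive values with a median of 0.24, against -0.01 and 48.1% positive over all 12570 such genes. In CPM both HFD libraries lay above both ND libraries for 5 of the 6, and 21.8% of the 12570 were ordered that way. In FPKM (fragments scaled by exonic length and total count, without TMM scaling) this held for 3 of the 6, against 15.8%.

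**Figure D1:**
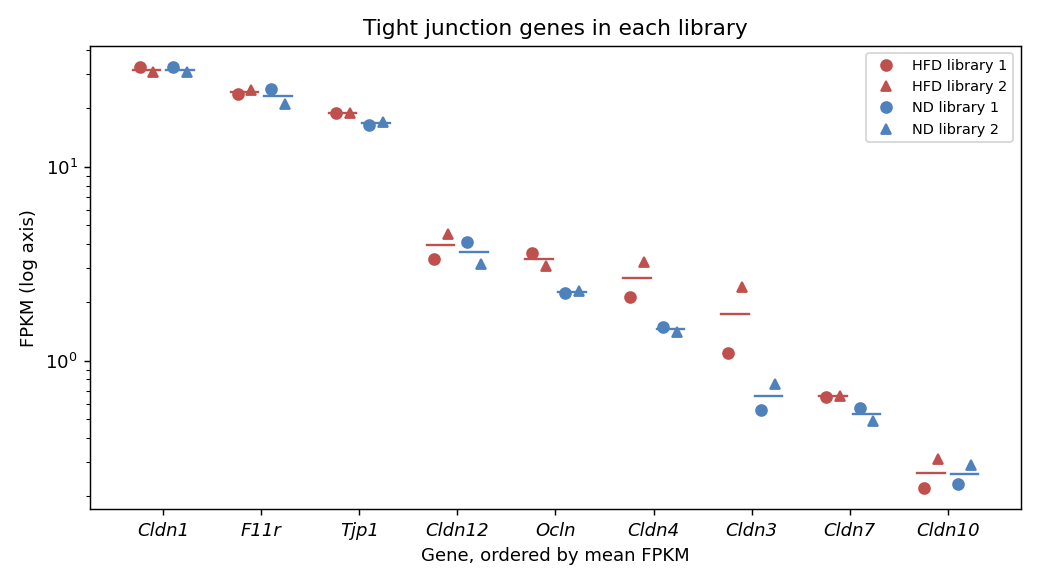
FPKM on a log axis for each of the 9 genes, with the HFD libraries in red to the left of the ND libraries in blue, a circle for the first library of a diet, a triangle for the second and a line at the mean of each diet. Cldn1, F11r and Tjp1 lie between 16.4 and 32.7 FPKM in every library, and the other 6 genes at 4.52 FPKM or below.

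By level per length the genes fell into an abundant and a low set. Cldn1 averaged 31.7 FPKM over the 4 libraries, F11r 23.7 and Tjp1 17.9, and the ranges of these 3 genes over the libraries did not overlap. Cldn12 followed at 3.78 FPKM, then Ocln at 2.80, Cldn4 at 2.07, Cldn3 at 1.20, Cldn7 at 0.593 and Cldn10 at 0.263. From Cldn12 to Cldn7 the range of each gene overlapped that of the next, so the ranges do not order these neighbours. Compared within a library, Cldn4 lay above Cldn3 in all 4, and the other neighbours changed order between libraries. Cldn12 lay wholly above Cldn3 and Cldn7, and Ocln and Cldn4 lay wholly above Cldn7. Of genes with a count in any library, 95.3% had a mean FPKM below that of Cldn1 and 31.3% one below that of Cldn10.

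Cldn1, the claudin essential for the epidermal water barrier (chromosome 16, positions 26356642 to 26371841, minus strand), took 32.7 and 30.8 FPKM in HFD libraries and 32.5 and 30.7 FPKM in ND libraries. In each diet the first library was the higher, and in this unit the diets overlapped almost fully. In TMM-scaled units it stood at 165 and 153 CPM in HFD libraries and 152 and 146 CPM in ND libraries. Its log2 fold change was 0.09 ± 0.13 (SE, n = 2 per diet; edgeR adjusted p = 0.82), and the 95% interval of the fold ran from 0.881 to 1.29. With counts between 1281 and 1566 per library, it is the claudin measured with the least error. Its single coding transcript in GENCODE has 4 exons.

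Cldn4 and Cldn3 encode barrier-forming claudins of many epithelia, and each has 1 exon in the annotation. Cldn4 (chromosome 5, positions 134945119 to 134946934, minus strand) had 34 and 50 counts in HFD libraries against 27 and 24 in ND libraries, or 4.05 and 5.98 CPM against 2.62 and 2.51 CPM. Cldn3 (positions 134986214 to 134987472, plus strand) had 12 and 26 counts in HFD libraries against 7 and 9 in ND libraries. Both HFD libraries were above both ND libraries for each gene, and the second HFD library was the highest for both. Cldn3 passed the count filter only through its HFD counts, so its order is not separate support for a difference. The log2 fold change of Cldn4 was 0.96 ± 0.56 (SE; edgeR adjusted p = 0.51), with a 95% interval of the fold from 0.830 to 4.57. That of Cldn3 was 1.47 ± 0.89 (SE; edgeR adjusted p = 0.53), with an interval from 0.721 to 10.7. Without the second HFD library these log2 fold changes were 0.65 for Cldn4 and 0.81 for Cldn3, and without the first they were 1.22 and 1.92. The suprabasal marker sum given above was also highest in the second HFD library. So were the endothelial, immune, and adipocyte and muscle sums, and that of simple epithelium, sweat gland and Merkel cell markers. The last summed to 759 and 1101 CPM in HFD libraries and 375 and 507 CPM in ND libraries. The other marker sums were highest in another library. The part of any of these cell types in the values of Cldn3 and Cldn4 was not tested.

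The 2 genes are 39279 bases apart. Among genes with a count within 100000 bases of either one, Mettl27, Abhd11, Stx1a, Bud23, Dnajc30 and Vps37d were tested and none passed. Mettl27, just beyond the 3′ end of Cldn4, had 86 and 104 counts in HFD libraries against 55 and 128 in ND libraries, with an overlap of the diets. Abhd11, on the far side of Cldn3, had 91 and 124 counts in HFD libraries against 131 and 100 in ND libraries and overlapped too. Cldn13, a further claudin gene of this stretch, had 0 counts in every library. The antisense gene Wbscr25 shares 40 bases with Cldn3. Whether counting used strand is not given, but Wbscr25 had 0 and 2 counts in HFD libraries and 0 and 0 in ND libraries.

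The remaining claudins did not pass the test or were too low for it. Cldn12 (chromosome 5, positions 5489537 to 5514958), an unusual claudin whose C terminus lacks the PDZ-binding end of the family, had 124 and 164 counts in HFD libraries against 172 and 125 in ND libraries. Its diets overlapped, and the log2 fold change of 0.20 ± 0.28 (SE; edgeR adjusted p = 0.82) was -0.0145 without the second HFD library. Cldn7 (chromosome 11, positions 69964779 to 69967885), a claudin of the lateral membrane of epithelia, had 11 and 11 counts in HFD libraries against 11 and 9 in ND libraries. The 95% interval of its fold ran from 0.340 to 4.97. Cldn10 (chromosome 14, positions 118787908 to 118875489), which forms ion-selective channels in kidney and sweat glands, had 5 and 7 counts in HFD libraries and 6 and 7 in ND libraries. The deposited counts are per gene, so the transcripts from its separate start sites were not told apart.

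**Figure D2:**
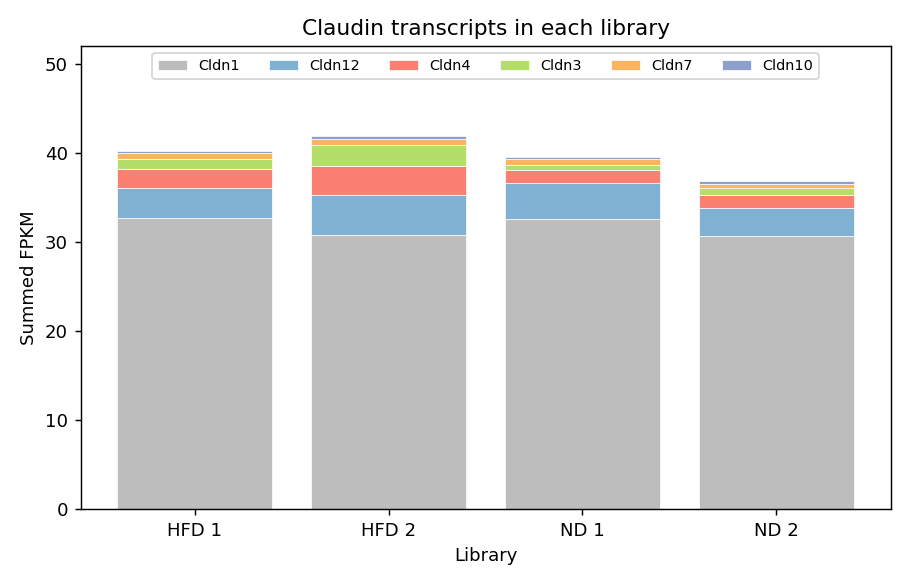
Stacked bars of FPKM for the 6 claudins in each library, HFD to the left, with the height giving the sum. The sums are 40.2 and 41.9 in the HFD libraries and 39.5 and 36.8 in the ND libraries, and Cldn1 makes up most of every bar.

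Summed over the 6 claudins, the level was 40.2 and 41.9 FPKM in HFD libraries and 39.5 and 36.8 FPKM in ND libraries. The fold between the means was 1.08, and the exact two-sided permutation p was 0.333, the smallest that 2 libraries against 2 can give. In TPM the sums overlapped, at 20.3 and 22.4 in HFD libraries and 21.8 and 17.55 in ND libraries (exact permutation p = 0.667, two-sided), as did the FPKM sums over all Cldn genes of the table (42.9 and 45.7 in HFD libraries, 43.6 and 42.1 in ND libraries). Cldn1 made up 81.4% and 73.5% of the sum in HFD libraries and 82.4% and 83.4% in ND libraries. Cldn3 and Cldn4 together made up 8.04% and 13.4% in HFD libraries and 5.22% and 5.90% in ND libraries. For both shares the diets did not overlap (exact permutation p = 0.333 for each, two-sided), and the second HFD library stood farthest from the rest. The shares are parts of the same sum, so they are not separate results. Relative to Cdh1, which encodes the cadherin of adherens junctions, the claudin sum was 0.233 and 0.244 in HFD libraries and 0.250 and 0.225 in ND libraries, with an overlap (exact permutation p = 1, two-sided). Relative to Krt14, the keratin of basal cells, it was 0.0121 and 0.0151 in HFD libraries and 0.0224 and 0.0165 in ND libraries (exact permutation p = 0.333, two-sided). Krt14 itself stood at 6048 and 5004 CPM in HFD libraries and 2990 and 3833 CPM in ND libraries and passed the test as higher.

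Ocln, the gene of the first membrane protein found at tight junctions (chromosome 13, positions 100496507 to 100552718, minus strand), had 132 and 112 counts in HFD libraries against 94 and 90 in ND libraries. It stood at 15.7 and 13.4 CPM in HFD libraries and 9.13 and 9.42 CPM in ND libraries, and the groups did not overlap. The log2 fold change of 0.65 ± 0.30 (SE; 1.57-fold) did not pass (edgeR adjusted p = 0.38), and its 95% interval of the fold ran from 0.993 to 2.48. Leaving out each library in turn gave log2 fold changes between 0.53 and 0.76. Within a library the ratio of Ocln to Cldn1 in FPKM, which does not depend on library scaling, was 0.109 and 0.1003 in HFD libraries and 0.0688 and 0.0743 in ND libraries (exact permutation p = 0.333, two-sided).

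Tjp1, the ZO-1 scaffold (chromosome 7, positions 65296165 to 65527781, minus strand), had 154 and 153 CPM in HFD libraries and 124 and 130 CPM in ND libraries. The groups did not overlap in CPM or in FPKM, where it stood at 19.0 and 19.1 in HFD libraries and 16.43 and 17.03 in ND libraries. The log2 fold change was 0.27 ± 0.13 (SE; edgeR adjusted p = 0.38), with an interval of the fold from 0.997 to 1.46, and lay between 0.24 and 0.31 when each library was left out in turn. F11r, the JAM-A gene (chromosome 1, positions 171437535 to 171464603, plus strand), had 65.9 and 67.8 CPM in HFD libraries and 64.5 and 55.4 CPM in ND libraries. In FPKM its diets overlapped, and its log2 fold change of 0.16 ± 0.16 (SE; edgeR adjusted p = 0.74) was 0.05 without the second ND library. Tjp1 had the smallest p of the members. The named genes whose profile over the 4 libraries was most like that of Tjp1 were Lrba, Klf13 and Fat2, with root mean square differences of 0.011, 0.011 and 0.014 in centred log2 CPM. None of these 3 genes passed the test (edgeR adjusted p = 0.36, 0.37 and 0.32), and 4 libraries cannot single out a shared pattern.

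**Figure D3:**
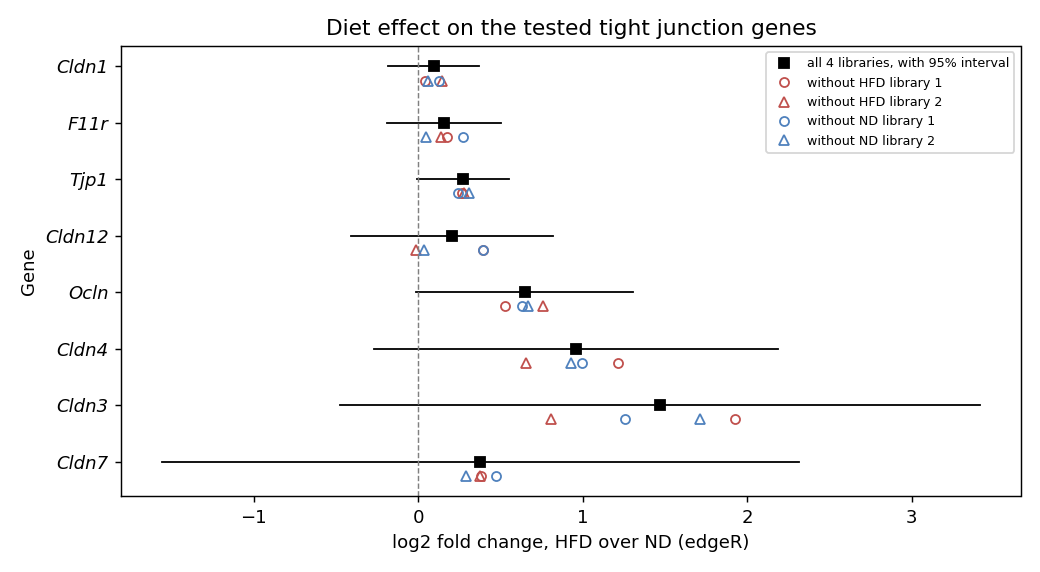
Log2 fold change of HFD over ND for the 8 tested genes, in order of level, as black squares with 95% intervals from edgeR, and below each the values without 1 library in turn as open symbols. Every interval includes 0, and the intervals of the 3 abundant genes are narrower than those of the 5 low ones.

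The other genes of the junction were taken from lists written from general knowledge. Of 25 other claudins and claudin-domain genes in the table, 13 had 0 counts in every library and 2 could be tested, Cldn8 and Cldnd1, neither of which passed or had an unadjusted p under 0.05, and DESeq2 and limma called 0 of them. Cldn8, the claudin between Cldn12 and Cldn4 in mean level, had 40 and 33 counts in HFD libraries against 41 and 84 in ND libraries. Its log2 fold change of -0.55 ± 0.51 (SE; edgeR adjusted p = 0.71) was 0.13 without the second ND library. Cldn5, the endothelial claudin, had 2 and 8 counts in HFD libraries and 2 and 1 in ND libraries. Cldn17 had 13 counts in the first ND library and 0 in the other 3.

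Among other membrane proteins of the junction 0 of 12 tested genes passed, with a median log2 fold change of 0.11 and values positive for 7 and negative for 5. In edgeR 5 of the 12 had an unadjusted p under 0.05, against 13.3% of all genes tested. DESeq2 called 2, against 2.72% of all genes, and limma 0, against 0.0138%. In CPM both HFD libraries lay above both ND libraries for 5 of the 12 and below them for 3. Of the 12570 genes past the count level in both diets 21.8% lay above, and the share below was not computed. Marveld2, the tricellulin gene of corners where several cells meet, had 8.33 and 9.69 CPM in HFD libraries and 3.88 and 5.86 CPM in ND libraries (edgeR adjusted p = 0.38). Pmp22 went the other way, with 6.42 and 9.21 CPM in HFD libraries and 17.4 and 11.2 CPM in ND libraries (edgeR adjusted p = 0.31). Cxadr, a receptor for adenovirus that sits at the junction, had log2 fold change 0.54 ± 0.14 (SE; edgeR adjusted p = 0.091). Perp, a membrane protein of desmosomes and junctions, had 0.43 ± 0.11 (SE; edgeR adjusted p = 0.091), and Emp2 0.35 ± 0.14 (SE; edgeR adjusted p = 0.30). Cxadr and Perp were each called by 2 of 14 alternatives and not by the other 12. These were DESeq2 (adjusted p = 0.024 and 0.0076) and edgeR with no count filter (adjusted p = 0.015 and 0.011). Scaffolds and polarity proteins gave 0 of 31, with a median of 0.10 and values positive for 19 and negative for 12. In edgeR 3 of the 31 had an unadjusted p under 0.05, against the 13.3% of all genes. DESeq2 called 1 of the 31, against 2.72% of all genes, and limma 0. The ZO-3 gene Tjp3 had 15.1 and 19.7 CPM in HFD libraries and 5.44 and 7.43 CPM in ND libraries, without overlap, a log2 fold change of 1.44 ± 0.33 (SE; edgeR adjusted p = 0.060). Of 14 alternatives 4 called Tjp3, which were DESeq2 (adjusted p = 0.020), the replicate block (0.013 in edgeR), no count filter and a minimum mean FPKM. The other 10 did not, among them each library left out in turn (edgeR adjusted p from 0.15 to 0.46). Cgn (cingulin) had a log2 fold change of 0.89 ± 0.29 (SE; edgeR adjusted p = 0.20) and Sympk, a cleavage factor also found at junctions, -0.38 ± 0.14 (SE; edgeR adjusted p = 0.27).

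Adherens junction genes gave 0 of 16, with a median of 0.15 and positive values for 13. Of the 12570 genes past the count level in both diets 48.1% were positive. In edgeR 4 of the 16 had an unadjusted p under 0.05, against 13.3% of all genes tested. DESeq2 called 1, against 2.72% of all genes, and limma 0. Jup, the plakoglobin gene, had 679 and 663 CPM in HFD libraries and 417 and 506 CPM in ND libraries (edgeR adjusted p = 0.064), and DESeq2 called it (adjusted p = 0.0032). The same 4 alternatives as for Tjp3 called Jup, and with each library left out in turn it was not called (edgeR adjusted p from 0.14 to 0.46). Cdh1 itself had a log2 fold change of 0.19 ± 0.11 (SE; edgeR adjusted p = 0.51). The nectins Nectin4 and Nectin1 had 0.81 ± 0.28 and 0.29 ± 0.12 (SE; edgeR adjusted p = 0.23 and 0.33).

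**Figure D4:**
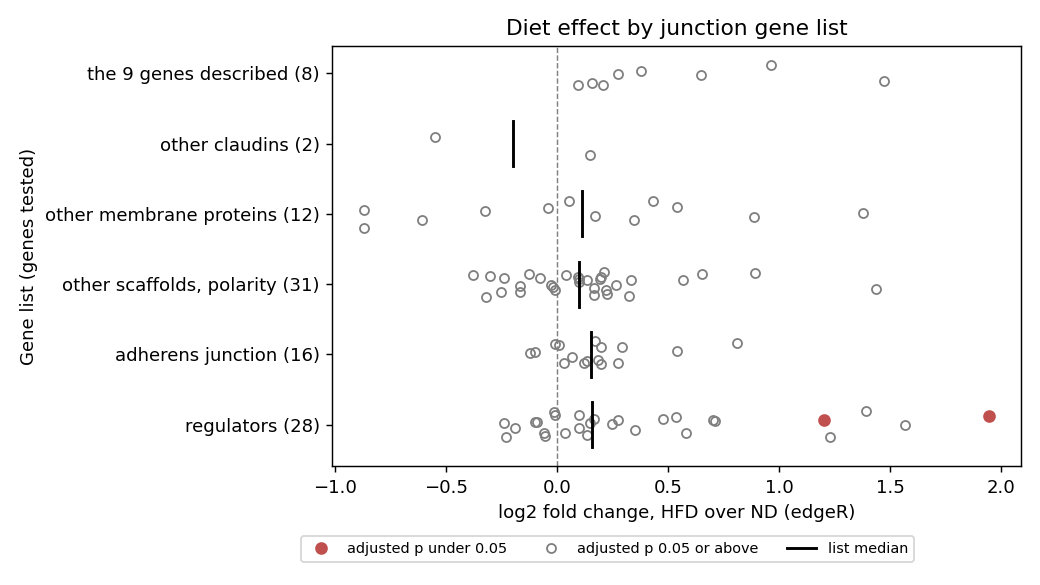
Log2 fold change of HFD over ND for each tested gene of the 9 genes described and of 5 lists of related genes, with the number tested in brackets, a black bar at the median of each of the 5 lists and filled red points for genes past the test. The 2 filled points are in the list of regulators, and the one farther right is Klf5.

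Regulators of junction genes and of claudin turnover held the only calls among these 5 lists, 2 higher and 0 lower of 28 tested. Of all genes tested 1.12% passed as higher and 0.228% as lower. DESeq2 called 6 of the 28, against 2.72% of all genes, and limma 0. In edgeR 10 of the 28 had an unadjusted p under 0.05, against 13.3% of all genes. Their median log2 fold change was 0.16, with values positive for 19 and negative for 9. Klf5, a zinc finger factor of proliferating epithelia, had 165 and 154 CPM in HFD libraries and 37.5 and 45.3 CPM in ND libraries. It rose 3.85-fold, a log2 fold change of 1.95 ± 0.15 (SE, n = 2 per diet; edgeR adjusted p = 1.2e-04). The call of Klf5 was lost without the first ND library (edgeR adjusted p = 0.26) and without the second (0.13), and by limma on log2(FPKM + 1) (adjusted p = 0.069), with log2 fold changes of 1.82, 2.085 and 1.74. Without the first ND library 0 of the 14479 genes passed edgeR, with 1488 at an unadjusted p under 0.05. Epcam, whose product binds claudin-7, had a log2 fold change of -0.10 ± 0.13 (SE; edgeR adjusted p = 0.81). The epithelial factors Ehf and Grhl3 had 1.57 ± 0.35 and 1.39 ± 0.34 (SE; edgeR adjusted p = 0.056 and 0.080), and Grhl2, an activator of Cldn4 and Cdh1, -0.09 ± 0.12 (SE; edgeR adjusted p = 0.81). The part of the suprabasal and other cell type markers in these values was not tested.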

How the data were processed

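Total RNA was purified on silica columns and libraries followed standard Illumina protocols, per the labels' protocols. Tools listed in the submitters' processing notes, without a role, are HISAT2 2.0.1, cutadapt 1.9.1 and bcl2fastq 2.17.1.14. How reads were counted, whether strand was used, and on which build, is not given in the sources used here. Raw counts and FPKM per gene and library, with exonic lengths, were deposited by the authors in 1 table. The deposited FPKM equalled counts over length and total count within 0.005. Positions are those of the table: 99.4% of matched gene identifiers have the same coordinates in GENCODE M21 (GRCm38).

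Counts were tested by quasi-likelihood in edgeR 4.0.16 (R 4.3.3), with TMM scaling (factors 0.965 to 1.04) and the default filter (about 10 counts in at least 2 libraries and 15 in total), without a replicate term. The standard error is the log2 fold change over the square root of F. DESeq2 1.42.0 and limma 3.58.1 on log2(FPKM + 1) or log2(FPKM + 0.1) were alternatives. The fit was checked on simulated counts. Each diet has 2 libraries. The edgeR errors, intervals and p-values also draw on the other genes tested, because the variance of a gene is moved toward a trend over all of them. Libraries of a diet differed by more than sampling noise (chi-square over degrees of freedom 6.53 for HFD, 13.9 for ND). Same-numbered libraries are not said to be paired. Named were all 9 members, the called genes and the 3 smallest p of each list, and the 3 genes nearest Tjp1. Epcam, Grhl2, Grhl3, Cdh1, Marveld2, Pmp22, Cldn5, Cldn17, the bulge markers named and the neighbours of Cldn3 and Cldn4 were added with their values seen. The other called regulator is not reported here. The genes over which directions were counted were set with values seen. Members and lists were chosen with earlier results of these data known. Protein sequences were not used here. Promoter windows are from RefSeq, and 12 of 14 member windows end within a GENCODE transcript of the gene.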

Additional observations from a re-analysis of the deposited data

How the results depend on the processing

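None of the 8 tested members was called under any of the 14 alternatives that tested it. Cldn10 was fitted only without the count filter (edgeR adjusted p = 0.99). Cldn7 was left out by the minimum mean FPKM and had no adjusted p in DESeq2. Some alternatives called few of all genes, as given below, so 0 members says little there. Of 111 log2 fold changes of the tested members 1 turned negative, that of Cldn12, at -0.0145 without the second HFD library (up to 0.40 without the first). The 111 values are refits of the same 4 libraries, with the low genes Cldn3 and Cldn7 among them, and are not separate support for a direction. Outside the members Cldn8 ranged from -1.01 to 0.13 and Cldnd1 from -0.0432 to 0.32 with 1 library left out, against -0.55 and 0.15 in all 4. The lowest adjusted p of a member was 0.30 (Tjp1, without the second ND library). Total-count scaling moved the median of all genes by -0.09 on the log2 scale, so that the log2 fold change of Cldn1 was 0.01 with it.

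Counts over all genes moved more. Against 162 higher and 33 lower, edgeR with equal sums of TPM gave 88 and 3 (96.7% higher against 83.1%), with no count filter 408 and 225, and with the replicate block 308 and 111. DESeq2 gave 275 and 119, limma 2 and 0 with either pseudocount, total-count scaling 132 and 65 (67.0% higher), and a minimum mean FPKM of 1 gave 213 and 55. Leaving out each library gave 0 to 81 higher and 0 to 2 lower genes, with 0 and 0 without the first ND library, where 1488 genes had an unadjusted p under 0.05. The replicate block called no member. The deviations of same-numbered libraries had a correlation of -0.005 across genes. The fold of summed claudins was 1.08 in FPKM, 1.143 with TMM factors and 1.09 in TPM, and between 1.04 and 1.12 without each library. The claudin to Cdh1 ratio, at 1.004, became 0.700 with Krt14 as denominator, and lay between 0.95 and 1.06 without each library. Low counts limit Cldn3, Cldn7 and Cldn10.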
